A study of Mus musculus with 16 samples.

Results

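The 7 T-box genes Tbx20, Tbx2, Tbx3, Tbx4, Tbx5, Tbx15 and Tbx18 were followed through 16 libraries of embryonic mouse valve RNA. They were taken by gene symbol from the deposited table of 13964 genes, in which all 7 have a row, and all 7 were tested. Of the 10 other T-box family genes looked for, 1 (Mga) has a row in the table analysed here. The libraries fall into 4 groups of 4 at embryonic stage E14.5 on the C57BL/6 background: mutant aortic valve, wild-type aortic valve, mutant pulmonary valve and wild-type pulmonary valve. Mutant embryos are Jag1flox;Nkx2.5-Cre, in which a floxed Jag1 allele (the gene of a Notch ligand) is recombined in cells with a history of the cardiac Nkx2.5-Cre driver. The labels do not say whether 1 or 2 Jag1 copies are floxed, nor whether wild-type littermates carry the Cre or a floxed allele. The study compared the genotypes within each valve. Valves were isolated by laser microdissection, the RNA was amplified before library preparation, and no source used here states how regions were picked for capture.

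T-box factors are transcription factors that bind DNA through a shared domain, the T-box, and either activate or repress their targets. In the heart, Tbx5 acts with Nkx2-5 and Gata4 to activate chamber genes, Tbx2 and Tbx3 repress those genes in the canal and conduction tissue, and Tbx20 is needed in myocardium, endocardium and cushion mesenchyme, the cells that form valves. Tbx4 is best known from hindlimb and lung mesenchyme, Tbx15 from limb and craniofacial mesenchyme and fast-twitch skeletal muscle, and Tbx18 from epicardium, sinus node and ureter mesenchyme.

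Values are normalised counts, the deposited read counts per gene scaled for library size, from a depth of 4.56 to 8.68 M reads per library (M, megareads). Jag1 was lower in the mutant than in the wild-type littermate library in 8 of 8 litter pairs. It had 9.90, 11.4, 5.93 and 10.2 normalised counts in mutant aortic libraries 1 to 4, against 20.2, 54.7, 39.7 and 18.8 in wild-type aortic libraries, and 12.4, 4.70, 3.78 and 1.85 in mutant pulmonary libraries, against 13.6, 19.2, 25.7 and 15.4 in wild-type pulmonary libraries. The genotypes therefore did not overlap in either valve, although the limma test across all genes did not call it (log2 difference over both valves −1.68, SE 0.32, adjusted p = 0.218).

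The libraries also differ in Mylpf, the light chain of fast skeletal muscle myosin. It was at 278 or more normalised counts in 10 libraries and at 23.2 or less in 6, so a limit of 100 divides them in a gap. The 6 libraries below 100 are mutant aortic 4, wild-type aortic 2 and 4, mutant pulmonary 4, and wild-type pulmonary 2 and 4. These are sets defined by a measured gene and not groups of the study, and 1 of 4 mutant libraries but 2 of 4 wild-type libraries fall below the limit in each valve. The set goes with litter. All 4 libraries of litters JGH66 and JGJ68 are below 100, all 8 of litters JND8 and JNC10 are above, and litter JND7 has its 2 wild-type libraries below and its 2 mutant libraries above. Summed skeletal muscle markers (13 genes) were at 846 to 2761 in the 10 libraries with Mylpf of at least 100. They were at 5.83 to 72.2 in the 6 below. Mylpf is itself among these markers, so the division in part sets this sum. The 12 valve mesenchyme markers, all present, summed to 2407 to 9090 in the 10 libraries, against 9283 to 12409 in the 6. The 8 endocardial and endothelial markers summed to 227 to 991 in the 10 libraries, against 995 to 1964 in the 6. The 10 cardiomyocyte markers in the table summed to 873 to 3373 in the 10 libraries, against 168 to 511 in the 6. Of these, Actc1 alone was at 639 to 2151 in the 10 libraries, against 54.5 to 173 in the 6. Which muscle type these markers came from was not tested. Smooth muscle, erythroid, neuronal, cartilage, lung and epicardial sums overlapped between the sets.

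Tbx20 (ENSMUSG00000031965), the cushion and myocardial T-box factor, was the most abundant of the 7 and varied 17.8-fold over the libraries. It lies on the minus strand of chromosome 9, 24718138 to 24774303 (GRCm38). It had 102, 613, 763 and 1032 normalised counts in mutant aortic libraries 1 to 4, against 101, 1744, 123 and 1501 in wild-type aortic libraries. In the pulmonary valve it had 98.0, 976, 549 and 1152 in mutant libraries, against 119, 1467, 947 and 1411 in wild-type libraries. Every group held both a low and a high library, the genotypes overlapped, and 5 libraries at 98.0 to 123 stood below the others, which began at 549. These 5 are library 1 of all 4 groups and wild-type aortic 3, and all come from litters JND8 and JNC10. No library had fewer than 697 Tbx20 reads. The RNA was amplified before library preparation, and the error this adds was not measured.

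The genotype difference of Tbx20 was within the spread between libraries in both valves. Means were 627 ± 391 in mutant and 867 ± 878 in wild-type aortic libraries, and 694 ± 471 in mutant and 986 ± 623 in wild-type pulmonary libraries (SD, n = 4 each). On the log2(value + 1) scale the mutant minus wild-type difference was 0.15 in the aortic valve (SE 1.08, 95% interval −2.12 to 2.42) and −0.49 in the pulmonary valve (SE 1.08, 95% interval −2.76 to 1.79). The aortic interval reaches past a 4-fold change (2 on the log2 scale) in both directions and the pulmonary interval past it in the lower direction, so a change of that size lies within the error of these libraries. By litter, Tbx20 was lower in the mutant in 4 of 4 pulmonary pairs and in 2 of 4 aortic pairs. The JND7 pair of each valve sets a mutant with Mylpf of at least 100 against a wild type below 100. In bulk tissue, fewer cells of a type and less RNA per cell cannot be told apart.

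Tbx20 divided the 2 Mylpf sets without overlap. It ranged from 98.0 to 976 normalised counts (median 336) in the 10 libraries with Mylpf of at least 100, against 1032 to 1744 (median 1439) in the 6 below. Of all genes tested, 2.6% were likewise lower without overlap in the 10 libraries. The members nearest the division were mutant pulmonary 2 at 976 and mutant aortic 4 at 1032. Among the 6 libraries with Mylpf below 100, the 2 mutants had 1032 and 1152, against 1411 to 1744 in the 4 wild types. The 2 mutants were thus the lowest of the 6, though the share of all genes with that order was not counted. On those libraries alone limma gave a log2 difference over both valves of −0.48. That fit has 1 mutant library per valve, so its error holds no spread between mutants. Among the 10 libraries with Mylpf of at least 100, Tbx20 spanned 98.0 to 976 in 6 mutants, against 101 to 947 in 4 wild types, and the log2 difference turned to 0.93 (SE 0.72). With log2 Mylpf as a covariate over all 16 libraries it was 0.25 (SE 0.55). Tbx20 moved with the valve mesenchyme markers: the 5 libraries at 98.0 to 123 had the 5 lowest marker sums, 2407 to 3335, and the next was 5726. The part of tissue make-up in these differences was not tested.

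**Figure D1:**
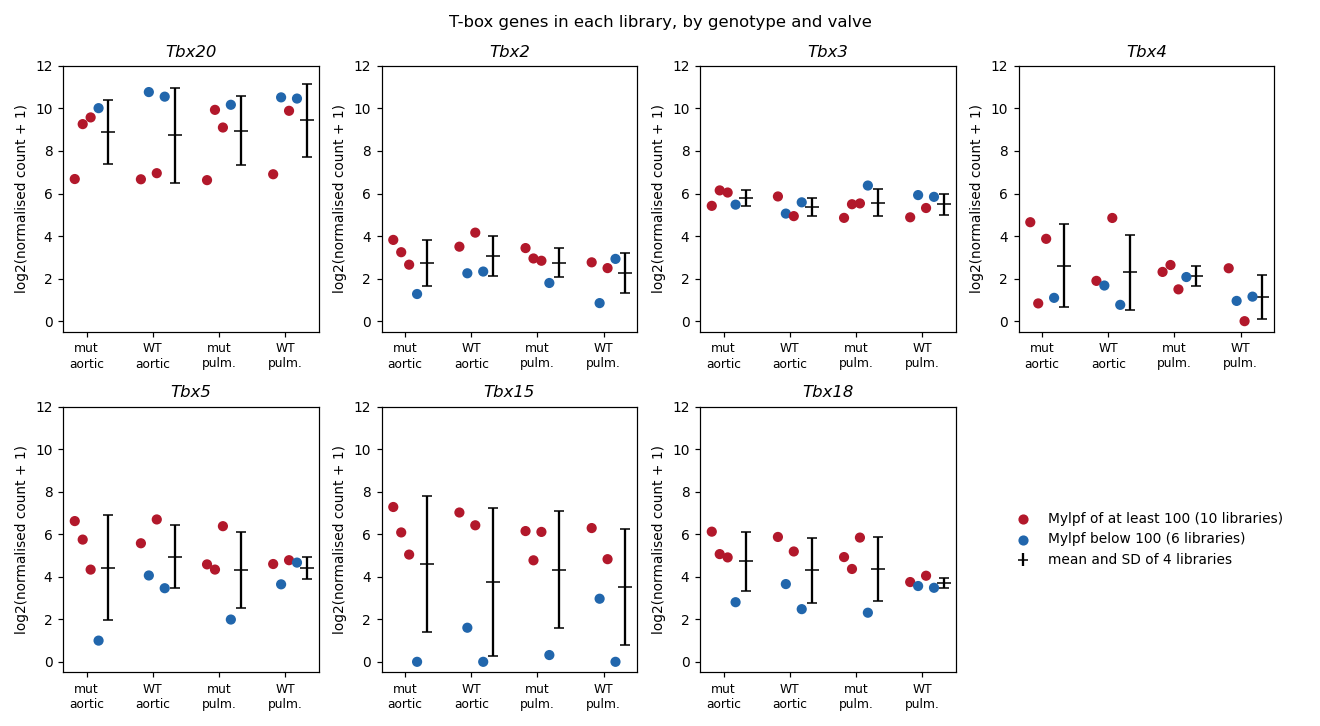
Level of each T-box gene as log2(normalised count + 1) in each of the 16 libraries (points), by group on the horizontal axis, with libraries of Mylpf at least 100 in red and below 100 in blue, and the mean and SD of 4 libraries as bars. Genotypes overlap for every gene, while for Tbx20 all blue points lie above the red ones and for Tbx15 and Tbx18 all blue points lie below them.

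The RefSeq table (GRCm38.p6) holds a window before the start site for 3 of the 7 genes, and those of Tbx20 and Tbx18 are shown because these genes of one chromosome stood on opposite sides of the Mylpf division. Each is the 250 bases before the annotated start, read 5′ to 3′ on the gene's own strand, at chr9:24774304-24774553 (minus strand) for Tbx20 and chr9:87731261-87731510 (minus strand) for Tbx18. Capitals mark the single match among the motifs searched.
Tbx20: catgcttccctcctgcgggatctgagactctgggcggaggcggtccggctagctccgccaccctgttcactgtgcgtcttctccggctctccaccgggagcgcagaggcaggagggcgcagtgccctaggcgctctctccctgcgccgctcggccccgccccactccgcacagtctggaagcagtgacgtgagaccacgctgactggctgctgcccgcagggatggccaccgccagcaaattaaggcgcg
Tbx18: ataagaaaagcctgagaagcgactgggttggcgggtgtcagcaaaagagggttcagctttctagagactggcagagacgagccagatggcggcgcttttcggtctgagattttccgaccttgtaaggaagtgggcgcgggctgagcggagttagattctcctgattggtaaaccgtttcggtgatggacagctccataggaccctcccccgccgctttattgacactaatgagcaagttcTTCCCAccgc
The motifs, searched on both strands, were the T-box half-site GGTGTGA, the sequence TGGGAA that RBPJ binds as the DNA partner of Notch, the GATA factor site AGATAA, and the E-box CAGCTG with its variant form CAGGTG. No position was matched by more than 1 of them. The Tbx18 window holds TGGGAA once, on the opposite strand (TTCCCA as printed), 10 bases before the start, and 21.6% of 32851 RefSeq windows of this length hold that motif. The Tbx20 window holds none of the 5 motifs. GGTGTGA is found in 3.33% of all windows, AGATAA in 9.99%, CAGCTG in 13.0% and CAGGTG in 17.2%. The Tbx20 window has a GC content of 68.8% with 22 CG dinucleotides, and the Tbx18 window 54.0% with 15, where the median window has 52.4% and 6. A match is a stretch of letters and not a measured binding site.

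Tbx2 and Tbx3, the closely related repressors, differed in level and neither separated the genotypes. Tbx2 (ENSMUSG00000000093, chromosome 11, 85832551 to 85841948, plus strand) had 13.1, 8.46, 5.30 and 1.42 normalised counts in mutant aortic libraries, against 10.3, 3.76, 16.9 and 4.04 in wild-type aortic libraries. Its pulmonary values were 9.82, 6.71, 6.16 and 2.47 in mutant libraries, against 5.80, 0.801, 4.63 and 6.61 in wild-type libraries. Tbx2 was low everywhere, resting on 6 to 114 reads, and its ranges overlapped. The log2 difference was −0.31 in the aortic valve (SE 0.62) and 0.50 in the pulmonary valve (SE 0.62). Tbx2 was at 4.63 to 16.9 in the 10 libraries with Mylpf of at least 100, against 0.801 to 6.61 in the 6 below, which overlap.

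Tbx3 (ENSMUSG00000018604, chromosome 5, 119670669 to 119684724, plus strand) was the steadiest of the 7, with a 2.94-fold range over all 16 libraries. It had 41.8, 69.9, 65.1 and 43.5 normalised counts in mutant aortic libraries, against 57.2, 32.3, 29.6 and 47.0 in wild-type aortic libraries. It had 27.9, 44.2, 45.3 and 82.0 in mutant pulmonary libraries, against 28.5, 59.8, 38.9 and 56.4 in wild-type pulmonary libraries. The highest library was mutant pulmonary 4, and both genotypes overlapped in both valves. Its intervals were the narrowest of the 7, with a log2 difference of 0.24 over both valves (SE 0.23, 95% interval −0.25 to 0.74). It was higher in the mutant in 4 of 8 litter pairs. Tbx3 also overlapped between the Mylpf sets, at 27.9 to 69.9 in the 10 libraries, against 32.3 to 82.0 in the 6. The antisense gene Tbx3os1 shares 115 exon bases with Tbx3 and had 0 to 5.33 normalised counts. No source used here states whether strand was used in counting, so reads in that stretch could belong to either gene.

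Tbx4 and Tbx5, known together from hindlimb and forelimb, varied widely among libraries of one group and did not separate the genotypes. Tbx5 (ENSMUSG00000018263, chromosome 5, 119832668 to 119885219, plus strand), the activator of chamber genes, had 97.0, 52.6, 19.2 and 0.996 normalised counts in mutant aortic libraries, against 46.6, 15.7, 102 and 10.002 in wild-type aortic libraries. It had 22.9, 19.2, 82.0 and 2.96 in mutant pulmonary libraries, against 23.2, 11.5, 26.4 and 24.3 in wild-type pulmonary libraries. The lowest libraries of all 16 were the 2 mutant libraries numbered 4, of litters JGJ68 and JGH66. Means were 42.5 ± 42.2 in mutant and 43.7 ± 42.3 in wild-type aortic libraries (SD, n = 4 each), and the log2 differences were −0.52 (SE 1.04) in the aortic and −0.10 (SE 1.04) in the pulmonary valve.

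Within the 6 libraries with Mylpf below 100, Tbx5 was at 0.996 and 2.96 in the 2 mutants, against 10.002 to 24.3 in the 4 wild types. These values did not overlap, and limma on these 6 libraries gave a log2 difference over both valves of −2.46. That fit has 1 mutant library per valve, so its error holds no spread between mutants. The 2 mutant values rest on 7 and 24 reads. The share of all genes without overlap in this division was not counted. In the 10 other libraries the same difference was −0.08 (SE 0.47), with 19.2 to 97.0 in mutants, against 23.2 to 102 in wild types. Over both genotypes Tbx5 was at 19.2 to 102 in the 10 libraries with Mylpf of at least 100, against 0.996 to 24.3 in the 6 below, which overlap. The cardiomyocyte markers summed to 168 in mutant aortic 4 and 196 in mutant pulmonary 4, the lowest of all 16 libraries. They summed to 234 in wild-type pulmonary 4, where Tbx5 was at 24.3. In the 10 libraries the lowest sum, 873 in mutant aortic 1, stood with Tbx5 at 97.0. The highest, 3373 in mutant pulmonary 2, stood with 19.2, while wild-type aortic 3 had 2979 with 102. The part of these markers in the Tbx5 values was not tested.

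Tbx4 (ENSMUSG00000000094, chromosome 11, 85886422 to 85916097, plus strand) was the lowest of the 7 per length, with 0 to 195 reads per library. It had 24.1, 0.783, 13.6 and 1.14 normalised counts in mutant aortic libraries, against 2.72, 2.19, 27.9 and 0.702 in wild-type aortic libraries. It had 3.98, 5.23, 1.82 and 3.21 in mutant pulmonary libraries, against 4.61, 0.935, 0 and 1.22 in wild-type pulmonary libraries. Only mutant aortic 1 and 3 and wild-type aortic 3 exceeded 10, and the 2 libraries numbered 3 share litter JNC10. In wild-type pulmonary 3 no read was counted, which allows up to 0.695 normalised counts at 3 reads (counting error only). The log2 differences were 0.32 (SE 0.90) in the aortic and 0.98 (SE 0.90) in the pulmonary valve.

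Tbx15 and Tbx18, related repressors of the mesenchyme, were both higher without overlap in the libraries with Mylpf of at least 100. Tbx15 (ENSMUSG00000027868, chromosome 3, 99240381 to 99354259, plus strand) had 154, 66.7, 31.9 and 0 normalised counts in mutant aortic libraries, against 129, 2.04, 84.5 and 0 in wild-type aortic libraries. It had 69.8, 26.3, 67.9 and 0.247 in mutant pulmonary libraries, against 77.1, 6.81, 27.3 and 0 in wild-type pulmonary libraries. The libraries numbered 4 were at or near 0 in all groups. At 3 reads, the 3 libraries at 0 allow up to 0.427, 0.526 and 0.367 normalised counts in mutant aortic 4, wild-type aortic 4 and wild-type pulmonary 4. The log2 difference was 0.84 in the aortic (SE 1.84) and 0.82 in the pulmonary valve (SE 1.84), the widest errors of the 7 genes, and with libraries at 0 these values depend on the pseudocount. With log2 Mylpf as a covariate the difference over both valves was −0.15 (SE 0.51), against 0.83 (SE 1.30) without it.

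Tbx15 ranged from 26.3 to 154 normalised counts (median 68.8) in the 10 libraries with Mylpf of at least 100, against 0 to 6.81 (median 0.124) in the 6 below. Tbx18 ranged from 12.5 to 68.4 (median 30.9) in the 10 libraries, against 3.95 to 11.6 (median 8.06) in the 6. Of all genes tested, 3.68% were higher without overlap in the 10 libraries, and 2 of the 7 T-box genes were. For Tbx18 the division was narrow, with wild-type pulmonary 1 at 12.5 just above and wild-type aortic 2 at 11.6 just below it. The epicardial markers in the table (3 of 6 looked for) summed to 9.10 to 37.6 in the 10 libraries, against 1.40 to 12.5 in the 6. Their part in the Tbx18 values, and that of the skeletal muscle markers in the Tbx15 values, was not tested.

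Tbx18 (ENSMUSG00000032419, chromosome 9, 87702800 to 87731260, minus strand) had 68.4, 32.4, 29.0 and 5.97 normalised counts in mutant aortic libraries, against 57.4, 11.6, 35.4 and 4.56 in wild-type aortic libraries. It had 29.3, 19.6, 56.3 and 3.95 in mutant pulmonary libraries, against 12.5, 10.8, 15.5 and 10.2 in wild-type pulmonary libraries. The wild-type pulmonary libraries were the closest to each other, and the range of the mutants contained theirs. Tbx18 was higher in the mutant in 6 of 8 litter pairs, the most of the 7 genes. In litter JND7 both pairs set a mutant with Mylpf of at least 100 against a wild type below it. The log2 difference was 0.43 in the aortic (SE 0.79) and 0.65 in the pulmonary valve (SE 0.79). With log2 Mylpf as a covariate the difference over both valves was 0.18 (SE 0.36), against 0.54 (SE 0.56) without it. With litter as a block the difference over both valves stayed at 0.54 with an SE of 0.29, against 0.56 without the block, and limma's adjusted p was 0.998. The transcript D030062O11Rik, on the opposite strand, shares 970 exon bases with Tbx18 and was not analysed here.

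**Figure D2:**
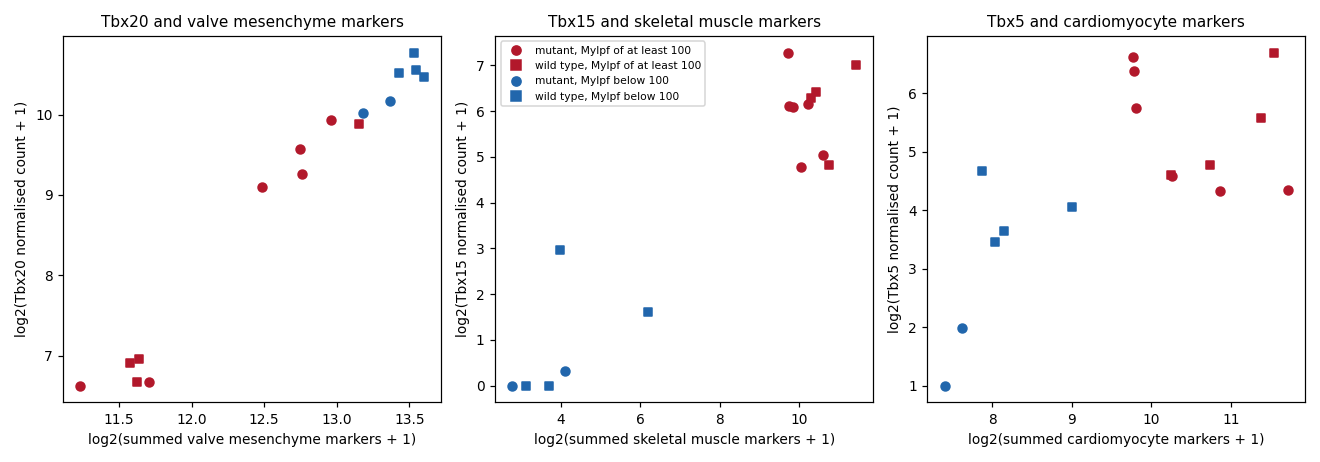
Tbx20, Tbx15 and Tbx5 against the summed level of a marker list in each library, both axes as log2(value + 1), with circles for mutant and squares for wild-type libraries, red for Mylpf of at least 100 and blue for below. The 5 libraries with Tbx20 at 98.0 to 123 sit lowest for valve mesenchyme markers, and the 2 blue circles lowest for Tbx5 also have the lowest cardiomyocyte sums. Among the red points the lowest cardiomyocyte sum goes with Tbx5 at 97.0 and the highest with Tbx5 at 19.2.

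No T-box gene passed the test in any comparison. In limma with Benjamini-Hochberg adjustment over 13963 genes, 0 of 7 passed in the aortic valve, the pulmonary valve, both valves together, the genotype by valve interaction and the valve comparison, where 0% of all genes tested passed in each. The unadjusted p of the 7 genes ran from 0.218 to 0.993 over the 5 comparisons, and over all genes 196 in the aortic, 437 in the pulmonary and 389 in the joint comparison had an unadjusted p under 0.05. None of the 7 was called by edgeR, DESeq2 or any other alternative fit either. Over both valves 5 genes were above wild type in the mutant and 2 below (Tbx20 and Tbx5), where 52.2% of all genes were above. The median log2 difference was 0.24, against 0.01 over all genes. None of the 7 was without overlap between genotypes in either valve. Of all genes, 0.759% were higher and 0.824% lower without overlap in mutant aortic libraries, and 0.938% and 1.05% in mutant pulmonary libraries.

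The genotype difference did not differ detectably between the valves for any of the 7. The interaction (pulmonary minus aortic genotype difference) ran from −0.63 for Tbx20 (SE 1.52) to 0.81 for Tbx2 (SE 0.88) on the log2 scale. Pulmonary minus aortic differences over both genotypes ran from −0.82 for Tbx4 (SE 0.64) to 0.39 for Tbx20 (SE 0.76), and 6 of 7 were below 0. With litter as a block, since 3 litters gave both valves, the differences were −1.31 for Tbx4 (SE 0.56), −0.79 for Tbx5 (SE 0.55), −0.72 for Tbx2 (SE 0.43), −0.72 for Tbx18 (SE 0.34), −0.39 for Tbx15 (SE 0.58), −0.24 for Tbx3 (SE 0.23) and 0.51 for Tbx20 (SE 0.56). All but that of Tbx20 were over 1.5 times as far from 0 as without the block, and none passed limma's adjusted threshold (unadjusted p = 0.0338 for Tbx4 and 0.0491 for Tbx18, each with an adjusted p of 1.0). Aortic libraries form batch 1 and pulmonary libraries batch 2, and a difference between valves cannot be told apart from one between batches. All 7 genes overlapped between the valves, and 0% of all genes tested did not.

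**Figure D3:**
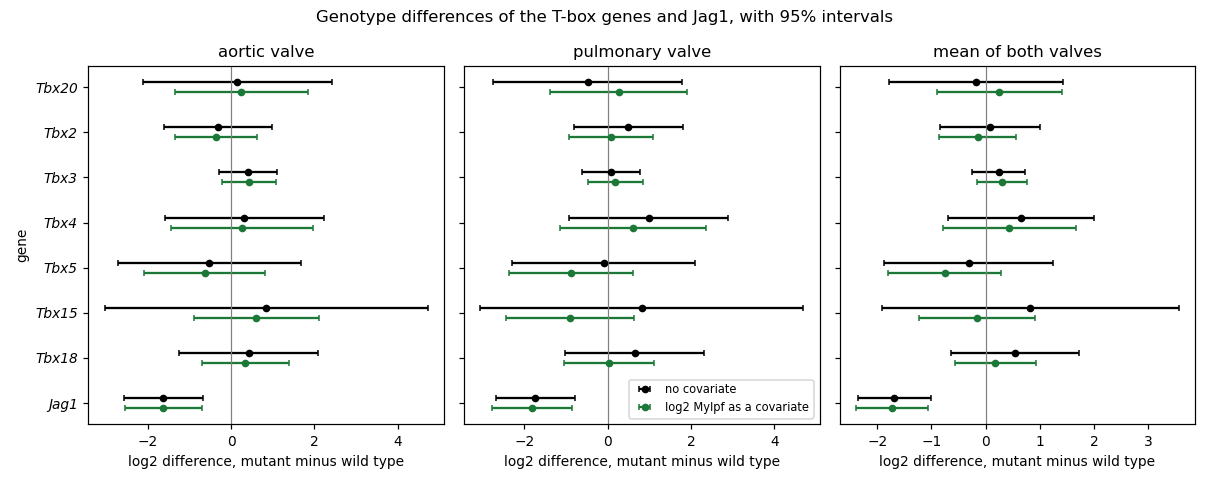
Mutant minus wild-type log2 difference (points) with its 95% interval (bars) for each T-box gene and Jag1 in the aortic valve, the pulmonary valve and their mean, without a covariate (black) and with log2 Mylpf as a covariate (green). All T-box intervals include 0, the Jag1 intervals do not, and the covariate narrows the Tbx15 interval most.

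Per kilobase of exon, the order of median levels over 16 libraries was Tbx20 (71.2 normalised counts per kilobase), Tbx15 (7.91), Tbx3 (6.76), Tbx5 (4.93), Tbx18 (3.72), Tbx2 (1.65) and Tbx4 (0.722). Neighbours in this order overlap in their ranges, and the other T-box gene in the table, Mga, lies between Tbx20 and Tbx15 at 17.0. The exon length used for Tbx20 is the union over 5 annotated transcripts, 11.997 kilobases, which lowers its value if shorter forms prevail. In the 6 libraries with Mylpf below 100, Tbx20 at 86.0 to 145 per kilobase stood clear of Tbx3 at 4.87 to 12.4. In the 10 libraries with Mylpf of at least 100 the second place went to Tbx15, at 7.02 to 41.1 per kilobase, overlapping Tbx20 at 8.17 to 81.4. Mga, a large factor with both a T-box and a helix-loop-helix domain, varied 1.78-fold, from 179 to 318 normalised counts.

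The share of Tbx20 in the 7-gene sum did not overlap between the Mylpf sets. Tbx20 gave 8.31% to 77.1% of the summed level per kilobase in the 10 libraries with Mylpf of at least 100, against 86.1% to 91.8% in the 6 below. Tbx15 gave 6.58% to 45.4% in the 10 libraries, against 0% to 1.31% in the 6. Between genotypes the share of Tbx20 overlapped, at 8.31% to 90.7% in mutant and 10.9% to 91.8% in wild-type libraries. In 5 libraries of litters JND8 and JNC10 Tbx20 gave the smallest shares, from 8.31% in mutant aortic 1 to 21.9% in wild-type pulmonary 1. These are shares of a sum, so a fall in Tbx20 raises the shares of the others.

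**Figure D4:**
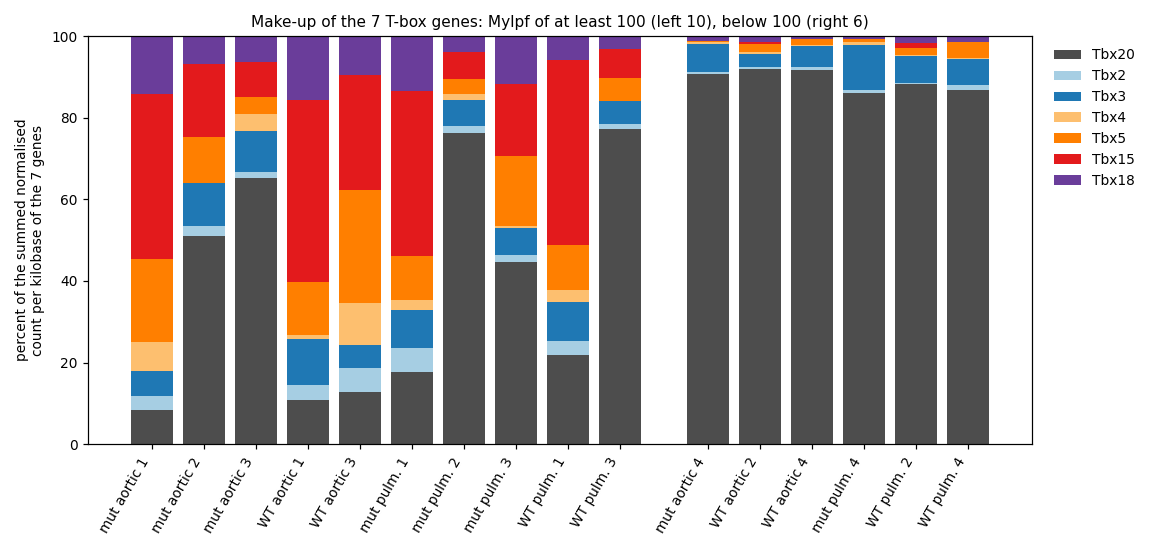
Share of each T-box gene in the summed normalised count per kilobase of the 7 genes (percent, stacked to 100), 1 bar per library, with Mylpf of at least 100 in the left 10 bars and below 100 in the right 6. Tbx20 fills 86.1% or more of each of the right 6 bars and 77.1% or less of the left 10.

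Among 9063 genes with a mean of at least 10, those whose log2 values followed a T-box gene most closely over the 16 libraries were, for Tbx20, Unc5b (a netrin receptor, Pearson r = 0.995), Ltbp4 (0.988), Postn (0.987), Pxdn (0.985) and Fbln2 (0.984). Postn encodes periostin, an extracellular matrix protein of valves, and Ltbp4 and Fbln2 are matrix proteins as well. Within the 10 libraries with Mylpf of at least 100 the r of Unc5b with Tbx20 was 0.995, as high as over all 16. Tbx15 was most like Rtl3 (r = 0.969, but 0.552 within those 10 libraries), followed by Ybx1, Dcx, Meox2 and Capn6. Within those 10 libraries the r of Ybx1 was 0.822, of Dcx 0.545, of Meox2 0.746 and of Capn6 0.743. Meox2, a homeobox factor of somites and limb muscle, had 18.3 to 111 normalised counts in the 10 libraries, against 0 to 2.98 in the 6. Tbx18 was most like S1pr3 (r = 0.946), Nfia (0.945) and Shox2 (0.924), the last a homeobox factor of the sinus node and limb. Within the 10 libraries these r were 0.883, 0.826 and 0.819. Tbx5 was most like Aplnr (r = 0.889, but 0.717 within the 10 libraries) and Ccnd2 (0.883, but 0.803). Tbx3 was most like Nt5e (r = 0.855, and 0.830 within the 10 libraries) and Phldb2 (0.782, and 0.799). Nt5e is also the protein-coding gene next to Tbx18. These are descriptions over libraries that share litters and tissue make-up, and Tbx2 and Tbx4 were left out for means under 10.

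Members of the set form 2 pairs of chromosomal neighbours. Tbx3 and Tbx5 lie 147.943 kilobases apart with 0 protein-coding genes between them, and Tbx2 and Tbx4 lie 44.473 kilobases apart with 1 between them. Tbx3 varied 2.94-fold over the libraries and Tbx5 103-fold. No pair of the 7 shares a 50-base stretch of annotated transcript, so a read of that length from one would not match another in full.

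Of 24 genes of factors and cofactors that act with T-box proteins, 22 were tested and 0 passed. Over both valves 16 were above and 6 below wild type, with a median log2 difference of 0.19, against 0.01 for all genes. Of all genes, 52.2% were above. The smallest unadjusted p over both valves belonged to Isl1, a second heart field factor, at 7.76 ± 2.47 in mutant and 4.55 ± 3.29 in wild-type aortic libraries, and 10.6 ± 9.73 in mutant and 4.72 ± 2.93 in wild-type pulmonary libraries (SD, n = 4 each). In the aortic valve alone it belonged to Foxc1, a forkhead factor of the outflow tract, at 66.2 ± 27.1 in mutant and 36.3 ± 19.1 in wild-type libraries, and in the pulmonary valve alone to Hand1, at 9.71 ± 6.29 in mutant and 3.40 ± 3.86 in wild-type libraries (SD, n = 4 each). Between the Mylpf sets, Gata4, Gata5 and Hand2, cardiac transcription factors, were lower without overlap in the 10 libraries (3 of 22, against 2.6% of all genes). Gata4 was at 20.1 to 250 there, against 256 to 357 in the 6, and Hand2 at 6.65 to 49.1, against 72.3 to 115. Mef2c, a muscle factor, was the 1 of 22 that was higher without overlap (3.68% of all genes), at 108 to 428, against 27.8 to 77.9.

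Of 22 genes reported as T-box targets, 16 were tested and 0 passed. Over both valves 6 were above and 10 below wild type, with a median log2 difference of −0.07, against 0.01 for all genes. Of all genes, 52.2% were above. Gja5, a connexin of atrium and conduction tissue that Tbx5 activates, had the smallest unadjusted p in the aortic valve. It averaged 13.5 ± 9.78 in mutant and 30.2 ± 19.99 in wild-type aortic libraries (SD, n = 4 each). Its pulmonary means were 15.0 ± 10.7 in mutant and 20.6 ± 20.1 in wild-type libraries. Mycn, a growth gene that Tbx20 and Tbx2 bear on in the mouse heart, had the smallest in the pulmonary valve. It averaged 9.60 ± 3.62 in mutant and 15.3 ± 2.15 in wild-type pulmonary libraries (SD, n = 4 each). In the aortic valve Mycn went the other way, at 14.0 ± 7.68 in mutant and 13.1 ± 4.81 in wild-type libraries. The matrix proteoglycan Vcan was lower without overlap in the 10 libraries with Mylpf of at least 100, at 355 to 3281, against 3290 to 4628 in the 6. So was Tgfb2, at 67.9 to 204, against 235 to 393, while the cardiac actin Actc1 was higher, at 639 to 2151, against 54.5 to 173. These are 2 of 16 lower and 1 of 16 higher, where 2.6% of all genes were lower and 3.68% higher without overlap. Vcan and Tgfb2 are also among the valve mesenchyme markers, and Actc1 among the cardiomyocyte markers.

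All 15 genes reported to regulate cushion T-box genes through BMP, Twist1 or Notch were tested and 0 passed. Jag1, the gene targeted in the mutant, is 1 of the 15 and 1 of those below wild type. Over both valves 9 were above and 6 below wild type, with a median log2 difference of 0.10, against 0.01 for all genes. Of all genes, 52.2% were above. Hey1, a repressor that Notch induces, averaged 25.4 ± 9.82 in mutant and 50.7 ± 13.3 in wild-type aortic libraries, and 30.3 ± 14.7 in mutant and 48.5 ± 19.5 in wild-type pulmonary libraries (SD, n = 4 each). Its log2 difference over both valves was −0.84 (SE 0.26) and that of Heyl −0.66 (SE 0.25), neither past limma's adjusted threshold. Notch1 was lower without overlap in the 10 libraries with Mylpf of at least 100, at 38.4 to 177, against 195 to 304 in the 6, and Hey2 likewise, at 10.6 to 65.0, against 73.0 to 127. These are 2 of 15, where 2.6% of all genes were lower without overlap, and 0 of 15 were higher, where 3.68% of all genes were.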

How the data were processed

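RNA was measured in 16 libraries of laser-microdissected E14.5 aortic and pulmonary valves. Per the labels' protocols, RNA was amplified (Ovation RNA-Seq System V2) before library preparation, and the valves were prepared as separate batches. Per the submitters' processing notes reads were handled with RSEM 1.2.3, cutadapt 1.6, CASAVA 1.8.2 and FastQC (roles not listed), on build GRCm38. The values the authors deposited are a normalised signal per gene (called normalised counts), whose normalisation no source used here states. In each library they were whole reads times 1 factor (100% of values within 0.05 read), equal to CPM rescaled by TMM. Of 13964 gene IDs, 13780 matched a symbol. The recovered reads, 4.56 to 8.68 M (megareads) per library, served edgeR 4.0.16 and DESeq2 1.42.0 as alternatives.

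The main test was limma 3.58.1 (R 4.3.3, trend) on log2(value + 1) over all 16 libraries with 1 mean per group, two-sided, adjusted by Benjamini-Hochberg and called under 0.05, for the 13963 genes at 1 or more in at least 4 libraries. Fold changes on this scale understate those of low genes. The fit was checked on simulated counts. There limma called 13% of log2 changes of 1 in the aortic valve, 15% in the pulmonary valve and 49% over both. Of log2 changes of 2 it called 80%, 78% and 95%. Each share is over 100 changed genes and is not a share for the T-box genes. In the measured libraries the SE in each valve was 1.08 for Tbx20, 1.04 for Tbx5 and 1.84 for Tbx15. How often a change of either size would be called for each of the 7 genes was not tested. Wild-type and mutant libraries of one number and valve share a litter per the labels, so the numbers pair them. The correlation of their deviations for numbers 1 to 4 was 0.48, 0.01, 0.20 and 0.64 among aortic libraries, and 0.49, −0.03, 0.07 and 0.45 among pulmonary libraries. There are 5 litters, of which 3 gave both valves, and the labels do not tie libraries to embryos, so p-values measure the spread between these samples. Exon lengths and positions are from GENCODE M21. The 7 genes, the division by Mylpf and all lists were chosen with earlier results of these data known. Named genes were the 7, other T-box genes, Jag1, Mylpf, up to 3 members per list with the smallest p and, for each T-box gene with a mean of at least 10, the 5 genes most like it, not counting predicted genes. List members without overlap between the Mylpf sets were named after their values were seen. Alternatives were the litter block, edgeR, DESeq2, other pseudocounts, filters and scalings, a Mylpf covariate, each Mylpf set alone and each library left out.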

Additional observations from a re-analysis of the deposited data

Results flagged for a closer look

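Among 32 sets of 4 libraries, each 1 gene in 1 group, 1 stood out by a sample far from its group. By chance about 1 set in 20 would do so. The sets covered the T-box genes followed here and 1 other gene. Tbx4 in wild-type aortic 3 was at 27.9 normalised counts, against 0.702 to 2.72 in the other 3 wild-type aortic libraries, and the gap was 0.926 of the group's range, past the limit for 4 samples. Mutant aortic 3 of the same litter had 13.6.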

How the results depend on the processing

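Over 28 alternatives no T-box gene passed the threshold in any comparison, so the directions below are those of differences within their error, and the cause of each turn was not tested. With log2 values of the mutant minus wild-type difference in the aortic valve, the 10 libraries with Mylpf of at least 100 alone gave −0.25 for Tbx4, −0.58 for Tbx15 and −0.17 for Tbx18, and the 6 below 100 alone gave −0.65 for Tbx20, −0.12 for Tbx4, −0.80 for Tbx15 and −0.26 for Tbx18, each of opposite sign to the fit over 16 libraries. EdgeR gave −0.47 and DESeq2 −0.46 for Tbx20. In the pulmonary valve the 10 libraries gave 0.16 for Tbx20 and 0.41 for Tbx5, the 6 gave −0.093 for Tbx2, −1.16 for Tbx15 and −1.21 for Tbx18, the Mylpf covariate gave 0.26 for Tbx20 and −0.92 for Tbx15, and Tbx5 was at 0.57 in edgeR, 0.59 in DESeq2 and 0.032 with a pseudocount of 5. Over both valves the 10 libraries gave 0.93 for Tbx20, −0.074 for Tbx2 and −0.23 for Tbx15, the 6 gave −0.55 for Tbx2, −0.98 for Tbx15 and −0.74 for Tbx18, the covariate gave 0.25 for Tbx20, −0.15 for Tbx2 and −0.15 for Tbx15, and Tbx5 was at 0.27 in edgeR and 0.26 in DESeq2.

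The interaction turned with the covariate for Tbx20 (0.012), Tbx5 (−0.25) and Tbx18 (−0.32), in the 6 libraries for Tbx20 (0.33), Tbx3 (0.33) and Tbx18 (−0.95), and for Tbx15 in edgeR (0.34), DESeq2 (0.37), the 10 libraries (0.70) and with pseudocounts of 5 (0.047) and 0.1 (0.27). The pulmonary minus aortic difference turned in the 6 libraries for Tbx20 (−0.0054), Tbx2 (0.058), Tbx3 (0.73), Tbx4 (0.40), Tbx5 (0.69) and Tbx15 (0.50), with the covariate for Tbx15 (0.024) and in edgeR for Tbx3 (0.0015).

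Leaving out 1 library at a time turned the sign of 21 of the 35 differences. In the aortic valve the range was −0.54 to 0.88 for Tbx20, −0.67 to 0.18 for Tbx2, −0.36 to 1.17 for Tbx4, −1.25 to 0.62 for Tbx5, −0.41 to 2.37 for Tbx15 and −0.18 to 1.07 for Tbx18. In the pulmonary valve it was −1.33 to 0.29 for Tbx20, −0.20 to 0.31 for Tbx3, −0.79 to 0.68 for Tbx5 and −0.36 to 2.15 for Tbx15, and over both valves −0.59 to 0.22 for Tbx20, −0.14 to 0.34 for Tbx2 and −0.68 to 0.26 for Tbx5. The interaction ran from −1.48 to 0.14 for Tbx20, −0.18 to 1.35 for Tbx4, −0.72 to 1.2 for Tbx5, −1.56 to 1.31 for Tbx15 and −0.42 to 0.91 for Tbx18, and the valve difference from −0.17 to 0.081 for Tbx3, −0.89 to 0.074 for Tbx5 and −1.02 to 0.42 for Tbx15.

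Over all genes, where limma called 0 in each comparison, the litter (replicate) block called 1 over both valves and 0 elsewhere, and moved no T-box difference between genotypes and no T-box call, while its valve differences stand beside those without it. DESeq2 called 2 in the pulmonary valve and 5 over both, and the covariate 2 over both. The 10 libraries called 3, 2 and 3 and the 6 libraries 3, 1 and 3 in the aortic valve, the pulmonary valve and over both. Leaving out 1 library gave 0 to 2 in the aortic valve (2 without wild-type aortic 4) and 0 to 3 over both (3 without that library, 2 without wild-type pulmonary 2). The scalings moved the median of all genes by under 0.1 (log2). Tbx2 and Tbx4 rest on at most 114 and 195 reads per library.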
